A study of Mus musculus with 14 samples.

Results

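The sites described are cytosines that lie within an intron and outside every exon, promoter and CpG island flagged in the methylation table, on chromosomes 1 to 19. There are 18717 such intron sites among 75761 sites in the table (24.7%). Methylation was measured by reduced-representation bisulfite sequencing (RRBS) in mammary adipose tissue of 14 female wild-type C57BL/6N mice. RRBS collects short fragments, here of 40 to 170 bp, cut by MspI at CCGG, and reads the methylated share of each cytosine after bisulfite conversion. Every mouse carried a tumor grown from E0771 mouse mammary cancer cells, injected 22 weeks after randomization to diet, and the tissue came from the fat pad on the opposite side. The labels also name E0771 as a cell line for these samples, although they give the tissue as normal mammary tissue. CON-LFD mice (n = 3) ate a low-fat diet throughout. DIO-HFD mice (n = 4) were made obese on a diet with 60% fat and stayed on it. DIO-LFD mice (n = 3) and DIO-VSG mice (n = 4) were made obese in the same way. DIO-LFD mice then ate the low-fat diet, and DIO-VSG mice underwent vertical sleeve gastrectomy and then ate the low-fat diet. The mice of the other 3 groups had a sham operation. The comparisons ask how obesity and its reversal by diet or by surgery plus diet relate to methylation, with 1 library per mouse. The tissue is a mixture of cells from a tumor-bearing animal, so a change of methylation within a cell type and a change in the mix of cell types cannot be told apart. Read counts are not part of the table, which leaves the depth of each measurement unknown, so counting intervals could not be computed.

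Introns are the stretches of a gene that are transcribed and then spliced out. In mammals most CpGs in introns are methylated, and transcribed gene bodies are often more methylated than their surroundings. Exceptions include enhancers and other regulatory elements within introns, which tend to be less methylated where they are active, and many transposable elements, which lie in introns in large numbers and are usually kept heavily methylated.

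The sequences around 8 sites are shown because these sites had the smallest p-values in the comparisons that follow. Each line gives the forward strand of mm10 (GRCm38) from 50 bases before to 50 bases after the measured C, and the capitals mark the measured CpG.
Dnah7c, chr1:46547806-46547906: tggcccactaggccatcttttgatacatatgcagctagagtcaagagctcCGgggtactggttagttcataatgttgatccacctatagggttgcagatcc
1700113H08Rik, chr10:87180662-87180762: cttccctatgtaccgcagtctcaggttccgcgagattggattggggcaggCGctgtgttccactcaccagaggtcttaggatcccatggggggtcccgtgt
Tbx1, chr16:18584930-18585030: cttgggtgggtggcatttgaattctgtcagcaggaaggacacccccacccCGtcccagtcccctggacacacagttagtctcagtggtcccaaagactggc
Fam110b, chr4:5762952-5763052: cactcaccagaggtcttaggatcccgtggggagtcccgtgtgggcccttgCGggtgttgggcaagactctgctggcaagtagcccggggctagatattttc
Iqcm, chr8:75872637-75872737: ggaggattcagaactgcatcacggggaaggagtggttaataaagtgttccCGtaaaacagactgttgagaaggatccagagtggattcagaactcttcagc
Itpr3, chr17:27102511-27102611: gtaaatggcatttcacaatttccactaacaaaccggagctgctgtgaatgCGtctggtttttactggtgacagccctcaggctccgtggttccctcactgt
Col12a1, chr9:79714505-79714605: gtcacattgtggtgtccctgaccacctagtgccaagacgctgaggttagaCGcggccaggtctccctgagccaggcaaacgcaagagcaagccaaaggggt
Ak5, chr3:152570419-152570519: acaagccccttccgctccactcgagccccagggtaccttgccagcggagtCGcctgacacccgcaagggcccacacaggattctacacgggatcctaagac
The Dnah7c, 1700113H08Rik, Fam110b, Iqcm and Ak5 sites lie in sequence that the reference soft-masks as repeats. The 50 bases centred on the CpG occurred 14689 times on chromosomes 1 to 19, X and Y for Dnah7c, 2240 times for Fam110b, 77 times for 1700113H08Rik, 26 times for Iqcm and 16 times for Ak5. The windows of Tbx1, Itpr3 and Col12a1 occurred once. Reads from identical copies may not be separable, so the levels at the 5 repeated sites are uncertain as values of those positions.

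Of the 18717 intron sites, 18713 lay at the C of a CpG in mm10 and 4 did not, and 5352 (28.6%) lay within the MspI motif CCGG. An intron of a GENCODE M21 gene could be assigned to 18655 sites in 3711 genes, and 62 sites had no single host gene. The table names the gene with the nearest transcript start, and for 7683 sites that was not a gene whose intron holds the site. Host genes are used below. First introns held 6855 sites (36.7%) and later introns 11800. The median intron was 10745 bp long, and the median site lay 1915 bp from a splice site. The median number of CpGs within 100 bases on each side was 6. An exon of some GENCODE transcript overlapped 925 sites (4.94%), which the table does not flag as exonic. Soft-masked repeats held 3908 sites (20.9%). The 50-base window occurred more than once for 2313 sites (12.4%), of which 2272 were in soft-masked repeats. The sites were clustered, with 9876 runs of neighbors no more than 100 bp apart and up to 28 sites in a run. Gse1 held the most sites, 372, while 1317 genes held 1 site each.

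Intron methylation was lowest in 3 of the 4 DIO-HFD mice. The mean level over the 18717 sites was 71.7%, 61.4%, 61.6% and 61.9% in DIO-HFD replicates 1 to 4. It was 69.7%, 69.4% and 65.5% in CON-LFD mice, 70.9%, 66.2% and 68.2% in DIO-LFD mice, and 70.4%, 69.7%, 69.9% and 70.4% in DIO-VSG mice. DIO-HFD replicate 1 therefore had the highest mean of all 14 mice, and DIO-HFD replicates 2 to 4 the 3 lowest. The group means were 68.2% ± 2.35 (SD, n = 3) for CON-LFD, 64.2% ± 5.05 (SD, n = 4) for DIO-HFD, 68.4% ± 2.35 (SD, n = 3) for DIO-LFD and 70.1% ± 0.343 (SD, n = 4) for DIO-VSG. Relative to DIO-HFD, the CON-LFD mean lay 4.04 percentage points higher, the DIO-LFD mean 4.29 and the DIO-VSG mean 5.96, and each of these groups lay within the range of the DIO-HFD mice, whose upper end is replicate 1. Without that mouse, DIO-HFD averaged 61.6% ± 0.214 (SD, n = 3), no other group overlapped it, and the differences were 6.56, 6.81 and 8.48 percentage points. DIO-VSG exceeded DIO-LFD by 1.67 percentage points, with overlap, and by 2.91 without DIO-LFD replicate 1 or 0.565 without DIO-LFD replicate 2. All comparisons with DIO-HFD share these 4 control mice, and the labels do not say how replicate 1 differed from the others. Whether its label is right was not tested. The differences from DIO-HFD had the same sign on all 19 chromosomes, ranging from 3.69 to 7.34 percentage points for DIO-VSG.

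**Figure D1:**
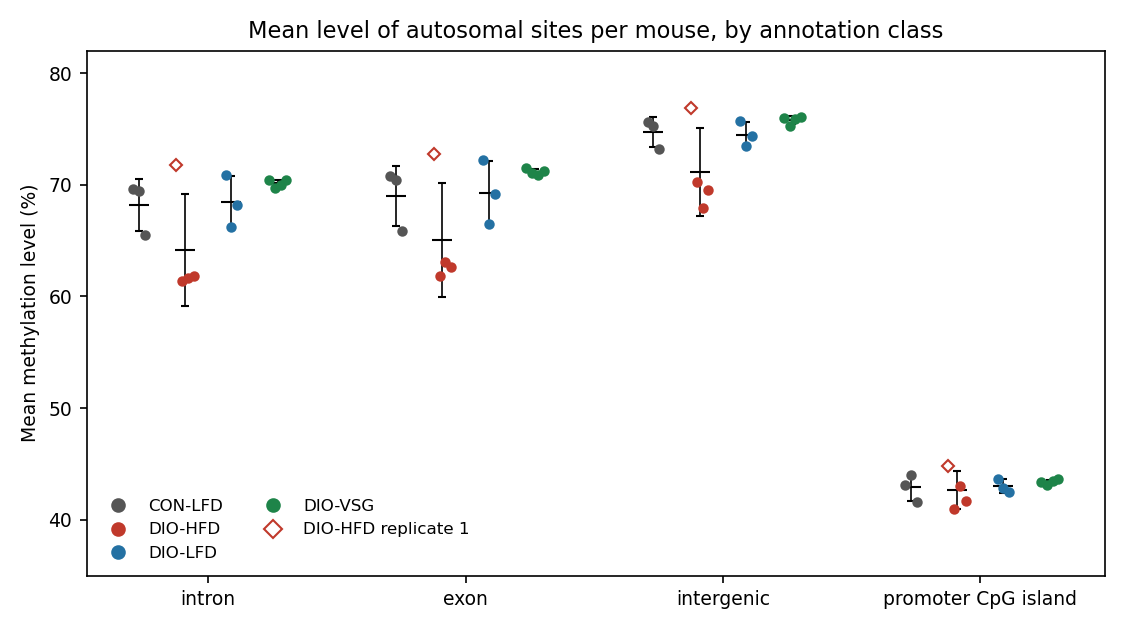
Mean methylation level (y axis, %) of autosomal intron, exon, intergenic and promoter CpG island sites in each of the 14 mice (points; colors are groups, the open diamond is DIO-HFD replicate 1; horizontal marks and bars are group mean ± SD). DIO-HFD replicates 2 to 4 lie at 61.4% to 61.9% for intron sites, below every other mouse, while replicate 1 lies at 71.7%.

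Between DIO-VSG and DIO-HFD mice, exon sites differed by 6.10 percentage points, intron sites by 5.96, intergenic sites by 4.64 and promoter CpG island sites by 0.779. For each mouse, the mean over intron sites minus that over another class was compared between groups. Intron sites lay 26.7 percentage points ± 0.26 (SD, n = 4) above promoter CpG island sites in DIO-VSG mice and 21.5 ± 3.67 (SD, n = 4) above them in DIO-HFD mice, a difference of 5.18 (two-sided exact permutation test, p = 0.114, adjusted p = 0.686 over 12 tests). Over sites outside CCGG the difference was 2.55 (exact p = 0.0286, unadjusted). Without DIO-HFD replicate 1, the difference over all sites was 6.97 (exact p = 0.0571, the smallest that 4 mice against 3 allow). Against exon sites the gap differed between DIO-VSG and DIO-HFD by -0.139 percentage points (exact p = 0.6). Against intergenic sites, which had higher levels in every mouse, it differed by 1.32 (exact p = 0.171). Adjusted p was 0.686 or higher for all 12 gaps. Most of these tests set 3 mice against 4, so an adjusted p under 0.05 could not be reached whatever the values. The adjusted p therefore cannot show whether intron sites differ from the other classes.

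By the mean over a class, the intron sites that differed least were those already low, where differences of single sites in both directions may cancel. Sites were divided by their mean level in CON-LFD mice, which do not enter the following comparison of DIO groups. The 1659 sites under 30% averaged 19.7%, 19%, 20.9% and 18.5% in DIO-HFD replicates 1 to 4 and 18.7% to 19.2% in DIO-VSG mice, and the groups overlapped. The 10668 sites at 60% to 90% averaged 81.8%, 69.1%, 69.2% and 69.9% in the DIO-HFD mice, against 79.6% to 80.6% in DIO-VSG mice and 75.1% to 80.8% in DIO-LFD mice. In that class the DIO-VSG mean was 7.58 percentage points above DIO-HFD with all mice and 10.7 above it without replicate 1. The 2499 sites at 90% or more averaged 89.1% ± 3.16 (SD, n = 4) in DIO-HFD and 92.8% ± 0.149 (SD, n = 4) in DIO-VSG mice, with DIO-HFD replicate 1 at 93.5% and the other 3 at 86.1% to 89%. The share of intron sites under 30% was 13.4%, 12.2% and 12.6% in DIO-HFD replicates 2 to 4 and between 8.40% and 10% in the other 11 mice, and the share at 90% or more was 7.41% to 9.67% in those 3 mice and 11.9% to 23.2% in the others.

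**Figure D2:**
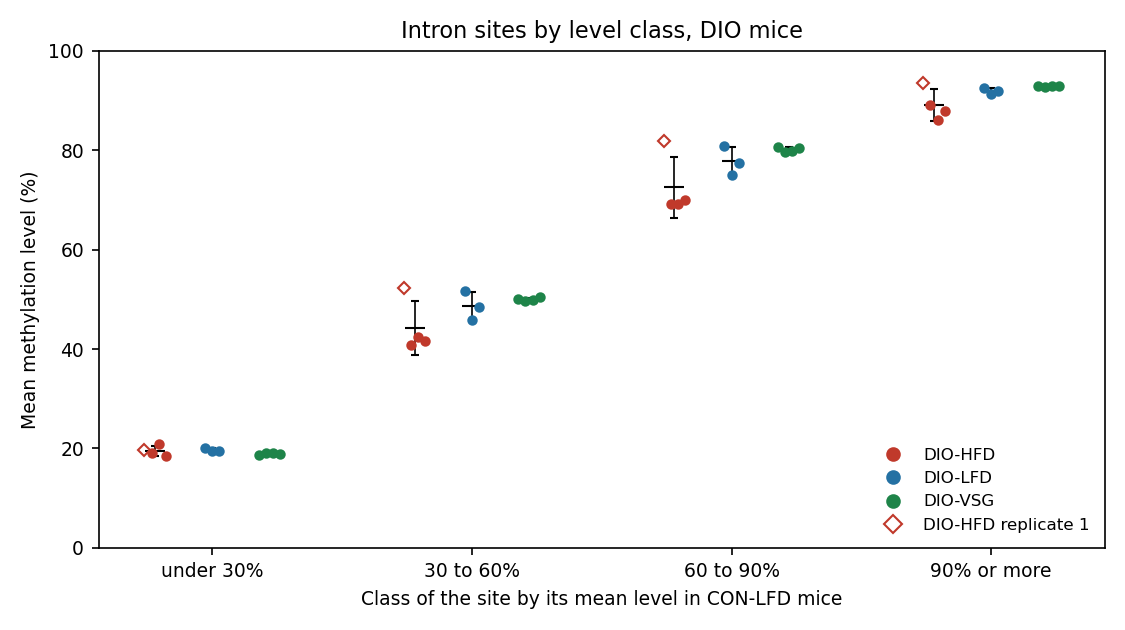
Mean methylation level (y axis, %) of intron sites in each DIO mouse, with the sites divided by their mean level in CON-LFD mice (x axis; points are mice, the open diamond is DIO-HFD replicate 1, marks and bars are group mean ± SD). The DIO groups overlap in the class under 30%, and DIO-HFD replicates 2 to 4 lie below all other mice in the 3 higher classes.

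First introns were less methylated than later introns, and sites near a transcript start less than distant ones. First introns averaged 63.2% ± 2.46 (SD, n = 3) in CON-LFD mice and later introns 71.0% ± 2.29 (SD, n = 3), and first introns were lower in all 14 mice. That gap was -7.68 percentage points in DIO-VSG and -7.78 in DIO-HFD mice, a difference of 0.0965 (exact permutation p = 0.771). Sites under 5000 bp from the nearest transcript start averaged 60.6% in CON-LFD mice, sites 5000 to 50000 bp away 70.3%, and sites over 50000 bp away 79.3%. Sites within CCGG exceeded the other intron sites by 6.55 percentage points ± 0.186 (SD, n = 4) in DIO-VSG and by 9.32 ± 1.99 (SD, n = 4) in DIO-HFD mice (exact permutation p = 0.114, adjusted p = 0.392 over 12 tests). Without DIO-HFD replicate 1 the CCGG gap differed by -3.76 (exact p = 0.0571). An adjusted p under 0.05 could not be reached in these 12 tests either.

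Sites in soft-masked repeats averaged 82.3% ± 0.912 (SD, n = 3) in CON-LFD mice, and the other intron sites averaged 64.5% ± 2.74 (SD, n = 3). In DIO-HFD replicates 2 to 4 the masked sites averaged 78.3%, 75.3% and 77.5%, against 81.2% to 84.1% in the other 11 mice. The unmasked sites averaged 57%, 58% and 57.7% in those 3 mice, against 61.3% to 68.5% in the others, so both kinds of site separated them from the rest. The difference between DIO-VSG and DIO-HFD was 4.17 percentage points in masked and 6.43 in unmasked sites. For the gap between masked and unmasked sites the exact permutation p was 0.143. It belongs to a set of tests in which no adjusted p under 0.05 was possible. Sites with at least 10 CpGs nearby averaged 87.2% in CON-LFD mice where masked (1575 sites) and 55.4% where not (1389 sites). The 16400 sites with a 50-base window that occurred once averaged 6.26 percentage points higher in DIO-VSG than in DIO-HFD mice.

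With all mice, single intron sites almost never passed a test adjusted for the number of sites, although many more leaned higher than lower relative to DIO-HFD. The level b of a site was analyzed as M = log2((b + 0.01)/(1 − b + 0.01)) with limma, over all 65610 sites whose standard deviation reached 0.05, of which 16600 were intron sites. The other 2117 intron sites varied less and were not tested. With Benjamini-Hochberg adjusted p under 0.05, limma called 0 intron sites between CON-LFD and DIO-HFD (0.00% of all tested sites were called), 1 between DIO-LFD and DIO-HFD (0.00305% of all), 0 between DIO-VSG and DIO-HFD (0.00305% of all) and 0 between DIO-VSG and DIO-LFD (0.00305% of all). At an unadjusted p under 0.05, 1260 intron sites (7.59%) were higher in CON-LFD than in DIO-HFD mice (6.00% of all tested sites) and 316 (1.90%) were lower (1.76% of all). For DIO-LFD against DIO-HFD, 1702 (10.3%) were higher (7.92% of all) and 350 (2.11%) lower (2.16% of all). For DIO-VSG against DIO-HFD, 4451 (26.8%) were higher (20.2% of all) and 890 (5.36%) lower (4.85% of all). For DIO-VSG against DIO-LFD, 327 (1.97%) were higher (2.42% of all) and 224 (1.35%) lower (1.55% of all).

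The levels of the mice of 2 groups did not overlap at few intron sites. Between CON-LFD and DIO-HFD this held for 651 tested intron sites (3.92%), of which 505 were higher in CON-LFD, against 4.68% of all tested sites. Between DIO-LFD and DIO-HFD it held for 695 (4.19%), 532 of them higher in DIO-LFD, against 4.80% of all. Between DIO-VSG and DIO-HFD it held for 1417 (8.54%), 1111 of them higher in DIO-VSG, against 7.58% of all, and between DIO-VSG and DIO-LFD for 1368 (8.24%), 903 of them higher in DIO-VSG, against 7.74% of all. The shares of intron sites were thus near those of all sites. The median difference between DIO-VSG and DIO-HFD over all 18717 intron sites was 6.34 percentage points, and 4.55 over all autosomal sites.

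A lean towards higher sites was present over the whole table. Over all tested sites, the median of the site differences in M from DIO-HFD was 0.29 in CON-LFD mice, 0.30 in DIO-LFD mice and 0.48 in DIO-VSG mice, and between DIO-VSG and DIO-LFD it was 0.16. With each mouse centred on its median M, the higher sites among intron sites at an unadjusted p under 0.05 were 906 of 1446 (62.7%, against 79.9% before centring) for CON-LFD, 1299 of 1902 (68.3%, against 82.9%) for DIO-LFD and 1956 of 3670 (53.3%, against 83.3%) for DIO-VSG, each against DIO-HFD. For DIO-VSG against DIO-LFD the share of higher sites was 42.1% after centring and 59.3% before it. Centring takes 1 value per mouse from all its sites, which by construction sets the median difference over all sites near 0, so shares and counts after centring are relative to the median of all tested sites.

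These counts rested on DIO-HFD replicate 1. Without it, limma with Benjamini-Hochberg adjusted p under 0.05 called 2280 intron sites higher (9.67% of all tested sites, against 13.7% of the intron sites) and 481 lower (2.30% of all) in CON-LFD than in DIO-HFD mice. In DIO-LFD it called 2921 higher (12.1% of all, 17.6% of intron sites) and 490 lower (2.42% of all), and in DIO-VSG 6553 higher (28.8% of all, 39.5% of intron sites) and 1127 lower (5.62% of all). Without DIO-HFD replicate 2, 3 or 4 instead, it called 0 or 1 intron sites in each of these comparisons. Replicate 1 was singled out by its values. Wherever p-values and counts without it are given, they are descriptions and no tests of a group difference.

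The 1 site past the threshold with all mice lies in intron 2 of Fam110b, which encodes a centrosome-associated protein, at chr4:5763002. Its level was 100% in all 3 DIO-LFD mice and 92%, 81.8%, 75% and 75.9% in the DIO-HFD mice. The groups did not overlap, and M was higher by 4.50 ± 0.47 (SE) in DIO-LFD mice (limma, Benjamini-Hochberg adjusted p = 0.00895). Across 20 alternative settings its adjusted p ranged from 0.000949, without DIO-HFD replicate 1, to 0.436, with an offset of 0.1, and passed in 13. It missed the threshold without DIO-HFD replicate 2 or 4, up to 0.0554. The CON-LFD mice stood at 88.2%, 91.3% and 80%, and the DIO-VSG mice at 86.7% to 94.1%, both overlapping DIO-HFD. As given above, its 50-base window occurred 2240 times in the genome.

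The other named sites did not pass with all mice. For CON-LFD relative to DIO-HFD, p was smallest at sites in Dnah7c (chr1:46547856, intron 19), a gene for a dynein heavy chain, in 1700113H08Rik (chr10:87180712, intron 4) and in Tbx1 (chr16:18584980, intron 4), a T-box transcription factor of pharyngeal development. The Tbx1 site, whose window is unique, was at 93.8%, 92% and 93.9% in CON-LFD and at 81.8%, 74.5%, 83.3% and 71.4% in DIO-HFD mice. There DIO-HFD replicate 1 was not apart from the others, and the groups did not overlap. The difference in M was 1.81 ± 0.37 (SE; limma, Benjamini-Hochberg adjusted p = 0.611). The Dnah7c site was at 94.3%, 100% and 97.1% in CON-LFD and at 73.7% to 81.8% in DIO-HFD mice, with adjusted p = 0.611 by limma. Without DIO-HFD replicate 1 the adjusted p was 0.0162 for Tbx1, 0.0159 for Dnah7c and 0.0221 for 1700113H08Rik. The adjustment uses the p-values of all tested sites, so an adjusted p can fall with little change at the site itself. Leaving out 1 mouse at a time, the Tbx1 difference in M stayed between 1.64 and 1.97.

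In DIO-VSG against DIO-HFD, the Itpr3 site (chr17:27102561, intron 24) was at 96.3%, 95.7%, 96.1% and 95.7% in DIO-VSG and at 87.5%, 85.2%, 80.7% and 73.5% in DIO-HFD mice. Itpr3 encodes a calcium release channel of the endoplasmic reticulum. The groups did not overlap, and the difference in M was 2.11 ± 0.36 (SE; limma adjusted p = 0.15). The DIO-LFD mice, at 94.6%, 92.9% and 97.3%, lay beside DIO-VSG, and the CON-LFD mice, at 84.6%, 87.2% and 78.0%, lay beside DIO-HFD. The Col12a1 site (chr9:79714555, intron 2) was listed at 0% in all 4 DIO-VSG mice and at 7.2%, 9.3%, 11.8% and 6.6% in DIO-HFD mice (limma adjusted p = 0.15). Col12a1 encodes a chain of collagen XII, and this site also lies in an exon of another GENCODE transcript. The DIO-LFD mice stood at 3.3%, 9.7% and 35.3%. The Iqcm site (chr8:75872687, intron 11) was at 100% in all 4 DIO-VSG mice and at 93.8%, 94.9%, 82.1% and 86.8% in DIO-HFD mice (limma adjusted p = 0.0955). Without DIO-HFD replicate 1 the adjusted p was 0.0015 for Itpr3, 0.00342 for Col12a1 and 0.00118 for Iqcm.

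Between DIO-VSG and DIO-LFD, the smallest p-values were at the Fam110b and Iqcm sites (limma, Benjamini-Hochberg adjusted p = 0.0747 for each) and at a site of Ak5 (chr3:152570469, intron 6), an adenylate kinase gene (adjusted p = 0.207). The Ak5 site was at 100% in all 3 DIO-LFD mice and at 86.7%, 90%, 87.5% and 94.3% in DIO-VSG mice. At each of these sites 1 of the 2 groups was listed at 100% in every mouse. With levels instead of M, the adjusted p by limma was 0.963 for Fam110b, Iqcm and Ak5 alike.

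**Figure D3:**
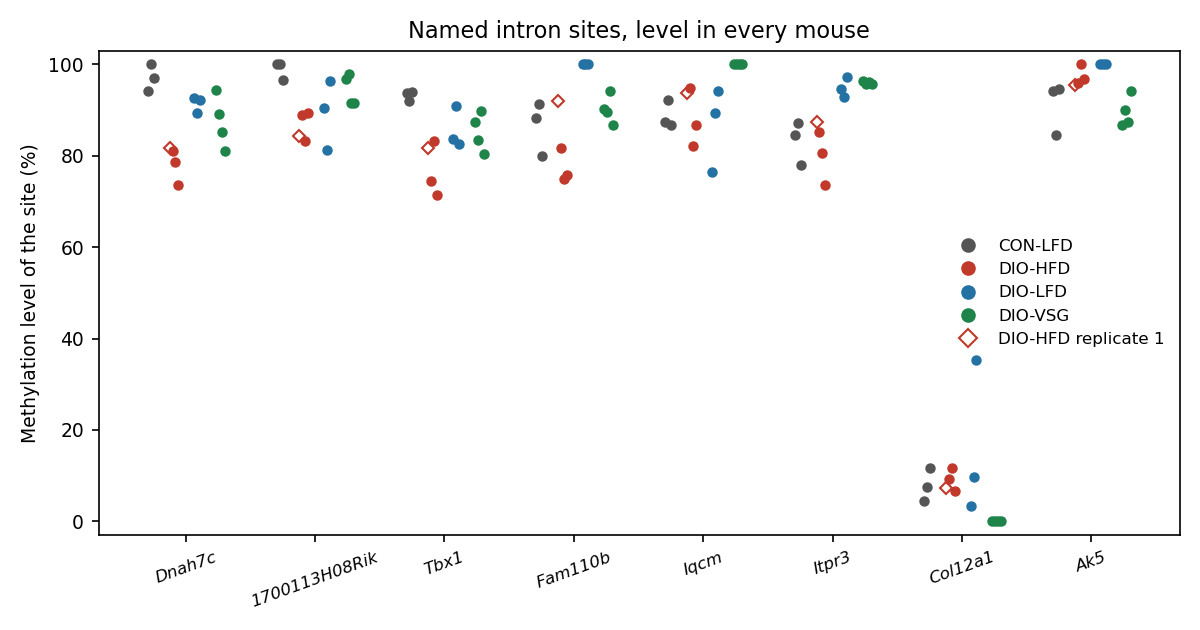
Methylation level (y axis, %) of the 8 named intron sites in each mouse (x axis, host gene; points are mice, the open diamond is DIO-HFD replicate 1). Levels are above 70% at 7 sites and at most 35.3% at the Col12a1 site, where the 4 DIO-VSG mice are listed at 0%.

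Genes differed widely in how far their introns separated the groups. Hspg2, which encodes the basement membrane proteoglycan perlecan, had 104 tested intron sites in 11 introns. Its mean was 75.2%, 48.4%, 50.1% and 49.4% in DIO-HFD replicates 1 to 4, 71.9%, 70.8% and 62.5% in CON-LFD, 78%, 62.9% and 68.4% in DIO-LFD, and 74.6%, 73.5%, 72.3% and 73.2% in DIO-VSG mice. DIO-HFD replicates 2 to 4 lay below every other mouse and replicate 1 lay above all DIO-VSG mice. At an unadjusted p under 0.05, 69 of its sites (66.3%) were higher and 0 lower in DIO-VSG than in DIO-HFD mice. Among all tested intron sites, 26.8% were higher and 5.36% lower. After centring each mouse on its median, 44 Hspg2 sites (42.3%) were higher and 0 lower, against 11.8% and 10.3% of all tested intron sites. Averaged in M over its sites, the difference was 1.18 ± 0.39 (SE; limma over 7059 gene units, Benjamini-Hochberg adjusted p = 0.111), with adjusted p = 0.000652 without replicate 1.

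Gse1 had the most tested sites, 355 in 9 introns, with values in both directions. At an unadjusted p under 0.05, 86 of them (24.2%) were higher and 53 (14.9%) lower for DIO-VSG against DIO-HFD. Among all tested intron sites, 26.8% were higher and 5.36% lower. After centring, 33 Gse1 sites were higher and 66 lower. Before centring, the mean of Gse1 differed by 3.29 percentage points. Its mean was 63.8%, 56.1%, 58.6% and 56.3% in DIO-HFD and 62.6%, 61.6%, 61.4% and 62.2% in DIO-VSG mice. The septin gene Sept9, with 107 tested sites, averaged 63.8%, 51.5%, 51.8% and 53% in DIO-HFD and 60.9% to 63% in DIO-VSG mice. Its sites gave 34 higher (31.8%) and 10 lower (9.35%), or 12 and 14 after centring. Another 243 tested sites were assigned to the intron of the long predicted gene Gm20388 on chromosome 8, where no other protein-coding gene had an intron.

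Over the 1539 genes with at least 3 tested intron sites, limma called 0 at Benjamini-Hochberg adjusted p under 0.05 in each of the 4 comparisons (0.00% of 7059 units in each). At an unadjusted p under 0.05, 129 (8.38%) were higher and 26 (1.69%) lower in CON-LFD than in DIO-HFD mice (6.98% and 1.44% of all units), 182 and 30 in DIO-LFD (8.70% and 1.86% of all), and 569 (37.0%) and 61 (3.96%) in DIO-VSG (28.3% and 4.65% of all). Between DIO-VSG and DIO-LFD, 19 were higher and 15 lower (1.91% and 0.921% of all). The mean level was higher in DIO-VSG than in DIO-HFD mice in 1293 of the 1539 genes (84.0%). After centring, 225 genes were higher and 194 lower at an unadjusted p under 0.05 in that comparison. Neither share was computed over all units. The median difference in M between DIO-VSG and DIO-HFD was 0.57 over the 1539 genes and 0.46 over all 7059 units, so all units leaned the same way. Without DIO-HFD replicate 1, 573 genes (37.2%) passed in CON-LFD (29.0% of all units), 642 (41.7%) in DIO-LFD (31.3% of all) and 972 (63.2%) in DIO-VSG (50.4% of all).

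Among the genes with the smallest p, repeated windows occurred at 11 of 12 sites of Asph, all 6 of Fbxl17, all 3 of Triqk, all 3 of Elmo1, 2 of 3 in Gm16070, 2 of 4 in Car10 and 1 of 7 in AU023762. Sites with unique windows made up the values of Mgat4b, Col12a1, Nr4a1 and Trub1. Mgat4b, which encodes a glycosyltransferase of N-glycan branching, was at 80.9%, 85.5%, 84.9% and 85.2% in DIO-HFD mice and at 70.3%, 79.1% and 74.6% in CON-LFD mice. The groups did not overlap, and M was lower in CON-LFD by 1.02 ± 0.25 (SE; limma adjusted p = 0.525). Nr4a1, an orphan nuclear receptor induced by many stimuli, averaged 74%, 59.9%, 62.5% and 57.6% in DIO-HFD and 78.3%, 74.7%, 77.8% and 74.9% in DIO-VSG mice over 3 sites at chr15:101269855-101269906 (limma adjusted p = 0.111). The 4 Col12a1 sites averaged 0% to 2.5% in DIO-VSG and 8.2% to 16.7% in DIO-HFD mice (limma adjusted p = 0.111). They lie at chr9:79714542-79714584 and include the Col12a1 site named above, so this value is no separate observation. Trub1, a pseudouridine synthase gene, averaged 57.2% to 59.9% in DIO-VSG, 49.2%, 42.6% and 45.6% in DIO-LFD, and 60.9%, 32.1%, 33.4% and 38.9% in DIO-HFD mice over 3 sites. Its difference between DIO-VSG and DIO-LFD did not pass (limma adjusted p = 0.963).

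**Figure D4:**
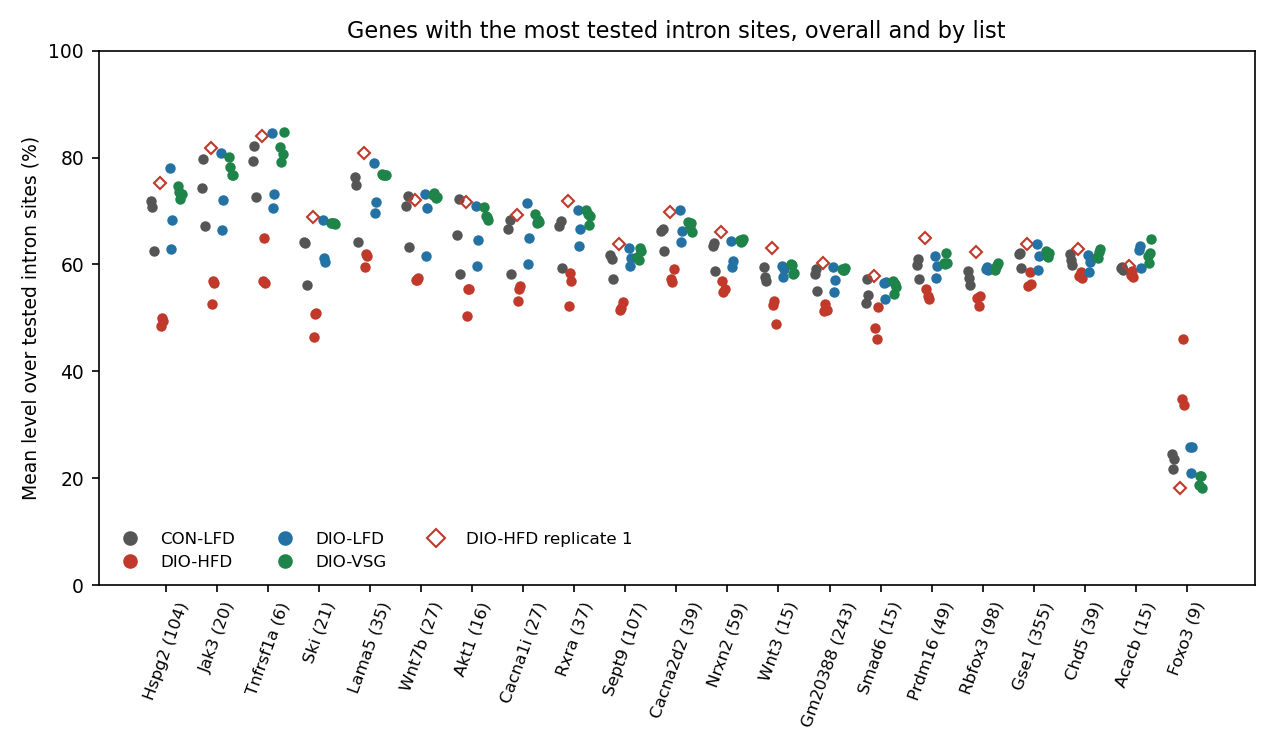
Mean methylation level over tested intron sites (y axis, %) of genes named for having the most such sites overall or in a functional list (x axis, gene with its number of tested sites), in each mouse (points; the open diamond is DIO-HFD replicate 1). Genes run from the largest to the smallest excess of DIO-VSG over DIO-HFD replicates 2 to 4, with Hspg2 first and Foxo3, where those 3 mice are highest, last.

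Lists of genes by function ranged widely in how many intron sites were higher for DIO-VSG than for DIO-HFD at an unadjusted p under 0.05. Over all tested intron sites this share was 26.8%, with 5.36% lower and a median difference of 7.19 percentage points, and after centring each mouse on its median it was 11.8%, with 10.3% lower. In each list 0 sites passed after adjustment in this comparison. Of 249 sites in 27 of 58 extracellular matrix and integrin genes, 115 (46.2%) were higher and 1 lower, with a median of 10.9 percentage points, and after centring 67 were higher and 8 lower. Hspg2 alone held 104 of these sites and 69 of the higher ones, and without it 46 of 145 (31.7%) were higher, nearer to the share of all intron sites. Lama5, a laminin chain of basement membranes, averaged 80.8%, 59.4%, 62% and 61.6% in DIO-HFD and 76.8% in each of the 4 DIO-VSG mice. Of 46 sites in 13 of 70 cytokine, chemokine and innate immune genes, 20 (43.5%) were higher and 1 lower, with a median of 15.2 percentage points, and after centring 10 were higher and 2 lower. Without Jak3, 9 of 26 (34.6%) were higher. Among these, Jak3, the kinase of common gamma chain cytokine receptors, averaged 81.9%, 52.6%, 56.9% and 56.5% in DIO-HFD and 80.1%, 78.2%, 76.7% and 76.7% in DIO-VSG mice over 20 sites. Tnfrsf1a, a receptor for TNF, averaged 84.1%, 56.9%, 64.9% and 56.6% in DIO-HFD and 79.1% to 84.7% in DIO-VSG mice over 6 sites. In both genes DIO-HFD replicates 2 to 4 lay below all other mice, and the gene-level adjusted p by limma was 0.116 and 0.111.

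Of 93 sites in 19 of 41 TGF-beta and BMP signaling genes, 36 (38.7%) were higher and 4 lower, with 17 and 9 after centring. Without Ski, 21 of 72 (29.2%) were higher and 4 lower, with 8 and 9 after centring. Ski, a repressor of SMAD signaling, averaged 69%, 46.5%, 50.7% and 50.9% in DIO-HFD and 67.5% to 67.8% in DIO-VSG mice over 21 sites of 1 intron. Smad6, an inhibitory SMAD, averaged 57.9%, 48.1%, 46.1% and 52% in DIO-HFD and 54.6% to 57% in DIO-VSG mice, with 5 sites higher and 3 lower, or 3 and 4 after centring. Of 155 sites in 26 of 61 Wnt signaling genes, 53 (34.2%) were higher and 4 lower, with 16 and 6 after centring. Wnt7b averaged 72%, 57.1%, 57% and 57.4% in DIO-HFD and 72.4% to 73.3% in DIO-VSG mice, and Wnt3 averaged 63.1%, 52.4%, 53.3% and 48.9% and 58.2% to 60.1%.

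In the remaining 5 lists, 17% to 27% of the sites were higher, and after centring lower sites outnumbered higher ones in each of them. Of 100 sites in 12 of 46 adipocyte and lipid metabolism genes, 27 were higher and 14 lower, with 9 and 16 after centring. Prdm16, a determinant of brown and beige adipocyte fate that also stands in the chromatin list, gave 16 higher and 13 lower of 49 sites (7 and 13 after centring), and its mean was 65%, 55.5%, 54.1% and 53.5% in DIO-HFD and 60.2% to 62.2% in DIO-VSG mice. Acacb, the mitochondrial acetyl-CoA carboxylase, was at 57.6% to 59.7% in DIO-HFD and at 60.2% to 64.7% in DIO-VSG mice, without overlap (limma adjusted p = 0.153), and DIO-HFD replicate 1, at 59.7%, was the highest of its group. After centring, its median difference in M was -0.05. Of 60 sites in 8 of 36 insulin, PI3K and mTOR genes, 15 were higher and 9 lower, with 7 and 13 after centring, and Foxo3 held 5 of the lower ones before centring and 9 after it. Foxo3, a transcription factor inhibited by Akt, had 9 tested sites, all in 1 intron at chr10:42273917-42274275. Its mean was 34.8%, 46% and 33.7% in DIO-HFD replicates 2 to 4, 18.2% in replicate 1 and 18.2% to 20.5% in DIO-VSG mice. Akt1 ran the other way, at 71.8%, 50.4%, 55.4% and 55.4% in DIO-HFD and 68.2% to 70.8% in DIO-VSG mice. By limma the gene-level adjusted p was 0.111 for each. Of 179 sites in 22 of 75 genes for chromatin and DNA methylation enzymes, 46 were higher and 25 lower, with 18 and 35 after centring. Of 271 sites in 39 of 54 voltage-gated ion channel genes, 71 were higher and 12 lower, with 23 and 32 after centring. Of 518 sites in 47 of 56 long synaptic and adhesion genes, 88 were higher and 24 lower, with 30 and 55 after centring. Rbfox3, a neuronal splicing factor with 98 sites, averaged 62.3%, 53.7%, 52.2% and 54.1% in DIO-HFD and 59% to 60.3% in DIO-VSG mice, with 15 sites higher and 5 lower, or 4 and 14 after centring. Lists of markers of adipocytes, mammary epithelium, lymphocytes, macrophages, endothelium and fibroblasts had tested intron sites in 2 to 4 of their 8 to 16 genes each, and gave no check of cell types.

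Some intron sites lay within enhancers that RefSeq lists from experiments. Whether these enhancers are active in mammary adipose tissue was not tested. There were 39 such elements, some overlapping, that held 126 intron sites in 25 genes. These sites averaged 54.6% ± 3.07 (SD, n = 3) in CON-LFD mice, below the 68.2% of all intron sites. In DIO-HFD replicates 1 to 4 they averaged 57.9%, 47%, 49% and 48.8%, and in DIO-VSG mice 56% to 57.4%. Of the 113 tested, 40 (35.4%) were higher and 6 (5.31%) lower for DIO-VSG against DIO-HFD at an unadjusted p under 0.05, where 26.8% and 5.36% of all tested intron sites were. After centring 10 were higher and 13 lower. By limma 0 passed after adjustment (smallest adjusted p = 0.15). Of the 40 higher sites before centring, 8 lay in Zfpm1R21 and 5 in Zfpm1R14, and 3 of the 6 lower ones lay in Zfpm1R10. These are fragments of 1 gene, described next, and no share without that gene was computed.

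Zfpm1, which encodes the GATA cofactor FOG-1, held 4 listed fragments with 28 intron sites, and these did not all point one way. Zfpm1 and the fragments were singled out after their values were seen. The 2 fragments of at most 300 bases are shown in full because their levels in DIO-HFD replicates 2 to 4 were above those of the DIO-VSG mice, while most intron sites were below. Capitals mark the measured intron CpGs.
Zfpm1R24, chr8:122314938-122315194: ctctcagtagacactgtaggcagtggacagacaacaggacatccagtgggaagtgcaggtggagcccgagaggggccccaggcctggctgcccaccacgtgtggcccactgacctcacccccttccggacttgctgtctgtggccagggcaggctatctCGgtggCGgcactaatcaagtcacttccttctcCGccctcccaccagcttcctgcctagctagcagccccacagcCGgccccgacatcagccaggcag
Zfpm1R10, chr8:122319470-122319736: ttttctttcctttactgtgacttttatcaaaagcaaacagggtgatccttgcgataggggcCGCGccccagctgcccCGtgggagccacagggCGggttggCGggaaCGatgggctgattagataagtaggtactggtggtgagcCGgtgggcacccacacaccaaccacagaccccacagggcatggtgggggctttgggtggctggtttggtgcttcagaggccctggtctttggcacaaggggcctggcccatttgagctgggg
In the Zfpm1R10 fragment, 7 sites averaged 53.9%, 82.2%, 76.9% and 86% in DIO-HFD replicates 1 to 4, 64.6%, 62.5% and 68.8% in CON-LFD, 58.4%, 76.3% and 67.8% in DIO-LFD, and 59.4% to 65.8% in DIO-VSG mice. DIO-HFD replicates 2 to 4 lay above all other mice and replicate 1 below them. In the Zfpm1R24 fragment, 4 sites averaged 22.2%, 41.3%, 43.5% and 37.1% in DIO-HFD and 26.9% to 29.5% in DIO-VSG mice, and CON-LFD replicate 3 stood at 41.2%. The Zfpm1R21 fragment (chr8:122296628-122297051) ran the other way, with 10 sites at 64.2%, 31.7%, 34.6% and 37.3% in DIO-HFD and 56% to 63.8% in DIO-VSG mice. So did the Zfpm1R14 fragment (chr8:122322723-122323202), with 7 sites at 75.3%, 51.3%, 54.8% and 49.4% in DIO-HFD and 71.3% to 74% in DIO-VSG mice. At an unadjusted p under 0.05 in DIO-VSG against DIO-HFD, 8 of 10 sites of Zfpm1R21 and 5 of 7 of Zfpm1R14 were higher with 0 lower, and 3 of 7 of Zfpm1R10 were lower with 0 higher. Without DIO-HFD replicate 1, all 10 and all 7 passed the adjusted threshold as higher in Zfpm1R21 and Zfpm1R14, 4 of 7 as lower in Zfpm1R10, and all 3 tested sites as lower in Zfpm1R24. In that setting 28.8% of all tested sites passed as higher and 5.62% as lower, and 39.5% and 6.79% of the tested intron sites. The fragments were chosen by these values and their neighboring sites are not independent, so the counts are a description and no test.

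**Figure D5:**
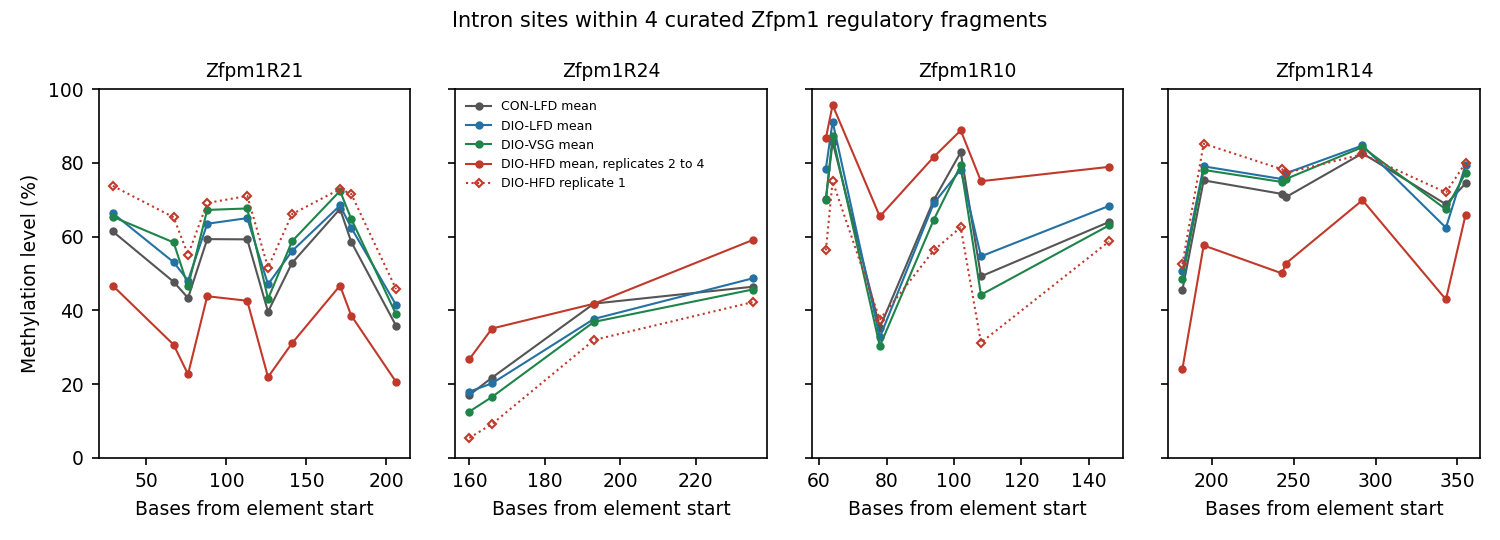
Methylation level (y axis, %) of intron sites in 4 fragments of Zfpm1 against the distance from the start of the fragment (x axis, bases). Solid lines are group means, with DIO-HFD averaged over replicates 2 to 4, and the dotted line is DIO-HFD replicate 1. The solid DIO-HFD line lies below the others in Zfpm1R21 and Zfpm1R14 and above them in Zfpm1R10.

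Gse1 showed both directions as well. In VISTA enhancer mm1674 (chr8:120423908-120427305), 13 sites averaged 50.9%, 39.9%, 37.8% and 38.1% in DIO-HFD and 54.1% to 56.3% in DIO-VSG mice. In VISTA enhancer mm196 (chr8:120292012-120294793), 4 sites averaged 60.6%, 81%, 83.5% and 84.3% in DIO-HFD and 59.1% to 61.1% in DIO-VSG mice.

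Levels of neighboring intron sites differed less the nearer the sites lay to each other. In CON-LFD mice, the median difference between neighbors was 7.48 percentage points for 1857 pairs at most 10 bp apart, 11.1 for 2084 pairs 51 to 100 bp apart and 14.5 for 4883 pairs more than 10000 bp apart. Of 2064 runs with at least 3 sites, the mean was higher in DIO-VSG than in DIO-HFD mice at every site in 1325 (64.2%) and lower at every site in 263 (12.7%). Between DIO-VSG and DIO-LFD, these numbers were 789 (38.2%) and 233 (11.3%), and 1042 runs were mixed. Sites of a run share reads and are not independent. The shares were not computed for runs of other sites. Taken singly, 77.6% of intron sites and 71.7% of all autosomal sites had a higher mean in DIO-VSG than in DIO-HFD mice.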

How the data were processed

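Mammary adipose DNA of 14 mice (3 CON-LFD, 4 DIO-HFD, 3 DIO-LFD, 4 DIO-VSG) was analyzed by RRBS. Reads were aligned by the authors to mm10 with Bismark and calls made with methylKit, and they deposited the methylation level of each site as a fraction from 0 to 1, without read counts. Their methods name filters on low variability and extreme coverage, and the leaving out of 1 CON-LFD and 1 DIO-LFD mouse of poor sequencing quality. The table still held sites of low variability. Depth per mouse is unknown. Groups came from the sample labels.

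Intron sites were taken by the flags of the table. Host genes and introns came from GENCODE M21, and sequence, soft-masking and enhancers from RefSeq GRCm38. Introns of non-coding genes counted only where no protein-coding gene had an intron at the site. A predicted gene with a Gm number was the host only where the methylation table named it or no gene of another kind of name counted there. Levels were transformed to M with an offset of 0.01. Sites reaching a standard deviation of 0.05 were fitted in 1 limma 3.58.1 model of the 4 groups (R 4.3.3), with Benjamini-Hochberg adjustment over 65610 sites. Gene units averaged M over at least 3 tested sites of a gene within 1 annotation class. Gaps between classes were compared by two-sided exact permutation tests (SciPy 1.17.1, Python 3.11.15), adjusted over 12 tests, and 4 tests on repeats were added after the data were seen. The smallest p these exact permutation tests allow is 0.0571 where 3 mice meet 4 and 0.0286 where 4 meet 4. Most tests were of the first kind, so no adjusted p under 0.05 could be reached in any of these sets. On simulated data for DIO-VSG against DIO-HFD, the fit of 65610 sites recovered 170 of 200 sites changed by 4 in M with 13 false calls and 48 of 200 changed by 2 with 6 false calls. The fit of 7059 gene units recovered 155 of 200 changed by 2 with 16 false calls and 43 of 200 changed by 1 with 5. Recovery in the measured levels, where DIO-HFD replicate 1 stood apart from its group, was not tested.

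The members and lists were chosen with earlier results of these data known. Named sites per comparison were up to 3 called sites of smallest p without overlap of the groups (1 was called, for DIO-LFD against DIO-HFD) and, in comparisons with no call, the 3 of smallest p. Named genes were the 5 with the most tested intron sites, the 2 with the most in each of 10 functional lists, and the 3 gene units of smallest p per comparison, and the values of some are not printed. The results of 1 gene and 1 functional list are not reported here. Alternatives were an offset of 0.1, levels instead of M, limma with a trended and robust prior, only the 2 groups compared, median centring, no filter or a minimum standard deviation of 0.1, the replicate number as a block, at least 5 sites per gene, and leaving out each mouse. For mean levels they were the median, tested sites only, 1 value per run and sites outside CCGG. Alternatives on repeats, repeated windows and GENCODE exons, 3 of those for gene units, the centring of lists and enhancers, and lists without their gene of most sites were chosen after seeing the data.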

Additional observations from a re-analysis of the deposited data

Results flagged for a closer look

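In groups of 4 mice, 11 of 88 sets of values held a mouse far from the other 3, where chance gives about 1 in 20, or 4.4, and 8 of the 11 were DIO-HFD replicate 1. Its mean level over all intron sites was 71.7%, against 61.4% to 61.9% in the other 3 DIO-HFD mice. For Gm20388 it was 60.3% (others 51.4% to 52.5%), for Sept9 63.8% (51.5% to 53%) and for Hspg2 75.2% (48.4% to 50.1%). For Wnt7b it was 72% (57% to 57.4%), for Lama5 80.8% (59.4% to 62%) and for Jak3 81.9% (52.6% to 56.9%). For Mgat4b the same mouse was lower than the others, at 80.9% (84.9% to 85.5%). The genes share the mouse, so these values are not independent of each other.

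The other 3 sets were small in absolute terms or single. DIO-VSG replicate 3 was at 62.2% for Prdm16 (others 60.2% in each) and at 71.9% for Mgat4b (77.2% to 77.8%). DIO-HFD replicate 3 was at 91.4% for Fbxl17 (95.1% to 95.4%).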

How the results depend on the processing

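Most counts and values stayed on their side of the threshold, but the calls depended on single mice, above all DIO-HFD replicate 1. Leaving out 1 mouse at a time, intron sites called at an adjusted p under 0.05 ranged in number from 0 to 2761 (CON-LFD), 0 to 3411 (DIO-LFD) and 0 to 7680 (DIO-VSG) against DIO-HFD and from 0 to 3 between DIO-VSG and DIO-LFD. The highest number in each comparison with DIO-HFD came without DIO-HFD replicate 1. Sites at an unadjusted p under 0.05 numbered 669 to 6709, 1036 to 7128, 2938 to 9619 and 404 to 1088 in the same order. Called gene units numbered 0 to 573, 0 to 642 and 0 to 972 for the 3 comparisons with DIO-HFD. The differences of the gap between intron and exon sites ranged from -0.128 to 0.243, -0.225 to 0.324, -0.313 to 0.0259 and -0.463 to 0.0854 percentage points, so their signs turned, and those of the gap to intergenic sites from -0.14 to 1.09 for CON-LFD against DIO-HFD and from -0.215 to 1.01 for DIO-VSG against DIO-LFD. The 1 site called for DIO-LFD against DIO-HFD became 0 with an offset of 0.1, with levels instead of M, with a trended and robust prior, with a standard deviation of at least 0.1 and with the replicate block, and 5 with only the 2 groups. With only the 2 groups, 6 sites and 1 gene unit were called for DIO-VSG against DIO-HFD and 4 sites for DIO-VSG against DIO-LFD, where median centring gave 1. Sites at an unadjusted p under 0.05 were 698 for CON-LFD and 793 for DIO-LFD against DIO-HFD (1576 and 2052 with all groups), and 984 for DIO-VSG against DIO-LFD (551). A minimum standard deviation of 0.1, which leaves fewer sites, gave 399, 567, 2000 and 88. Outside CCGG, the gap between intron and promoter CpG island sites differed by 2.55 percentage points between DIO-VSG and DIO-HFD (exact p = 0.0286), and the gap to exon sites by 0.157, or 0.337 outside masked repeats, against -0.139 with all sites. The cause of these changes was not tested. Whether replicate numbers pair the mice was not tested. Deviations of same-numbered mice correlated at -0.0804 to 0.202, and 4 of 19 pairs were over 0.1. Mice of other numbers correlated at -0.288 to 0.191, and 2 of 54 pairs were over 0.1. Of 14 mice, 8 correlated best with a mouse of their own number. With the replicate block, 1455, 1900, 5911 and 628 intron sites had an unadjusted p under 0.05. The missing read counts limit all levels, since the error of a single level cannot be given.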
